A study of Mus musculus with 6 samples.

Results

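The genes described here were 10 members of the interleukin-1 (IL-1) and interleukin-6 (IL-6) families, taken by gene symbol from the 34745 genes listed for cardiac fibroblasts of infarcted mouse hearts. They were the cytokines *Il6*, *Il11*, *Lif*, *Il1b* and *Il33*, the receptor antagonist *Il1rn*, and the receptor subunits *Osmr*, *Il6st*, *Il1r1* and *Il1rl1*. All 10 were found, and all 10 were among the 14084 genes that passed the filter on low counts. The study deleted the H3K4 demethylase KDM5B, and the comparison asked how fibroblast gene expression after myocardial infarction (MI) differed without it. Male mice, 8-10 weeks old, were KDM5B knockout (KO) or littermate wild-type (WT) on a C57BL/6 background, and the left anterior descending coronary artery was tied in both genotypes. Fibroblasts of the left ventricle were taken on Day 7 after MI, and RNA of each genotype was sequenced as 3 libraries, so every library came from an infarcted heart and uninjured hearts were not analysed here. The knockout was made with CRISPR/Cas9 by removing a stretch of *Kdm5b* that holds the JmjC domain, which shifts the reading frame. It was not limited to fibroblasts, so other cells of these hearts carried it as well. The labels do not say whether a library held 1 mouse or a pool, so the p-values measure the spread between these libraries, which may be technical.

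IL-6 family cytokines bind a receptor of their own and then signal through a shared subunit, gp130, the product of *Il6st*, which activates JAK kinases and the transcription factor STAT3. IL-1 binds the receptor encoded by *Il1r1* and, with an accessory chain, recruits MyD88 and IRAK kinases to activate NF-kB, while the antagonist encoded by *Il1rn* occupies the same receptor without signalling. In the injured heart both families carry messages between dying myocytes, leukocytes and fibroblasts, and fibroblasts answer IL-1 by secreting IL-6.

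The libraries held between 12025403 and 15329427 counts, so the 3 counts used as a detection floor equalled 0.249 CPM (counts scaled to library size) in the smallest. *Kdm5b* itself (chr1:134560171-134635285) was at 98.1, 107 and 105 CPM in the KO-labelled and at 108, 129 and 123 CPM in the WT-labelled libraries (log2 fold change -0.22, SE 0.07, adjusted p = 0.0574, edgeR quasi-likelihood test with Benjamini-Hochberg adjustment). A gene total also counts reads outside the deleted stretch, so it does not check the labels, and the libraries are called by their labels throughout. Marker genes moved with the labels. The summed CPM of 12 fibroblast markers, led by *Col1a1*, ranged from 26819 to 31261 in the KO-labelled and from 37514 to 39959 in the WT-labelled libraries, and 12 of the 12 were called lower. The summed CPM of 12 endothelial markers ranged from 1525 to 2192 and from 287 to 297, with 11 of the 12 called higher, and the sum was highest in KO replicate 1. The summed CPM of cardiomyocyte markers ranged from 756 to 842 and from 1057 to 1076, that of epicardial markers from 465 to 526 and from 630 to 636, and that of mural markers from 853 to 867 and from 931 to 948. Of those tested, 7 of 9 cardiomyocyte, 7 of 8 epicardial and 3 of 7 mural markers were called lower, and 0, 1 and 2 were called higher. In bulk RNA, fewer cells of a type and less RNA per cell cannot be told apart.

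Levels of the 10 genes were compared with each other in FPKM, which divides fragments by a gene length and library size. That length exceeded the longest annotated transcript of each of the 10 genes. In the WT-labelled libraries *Il6* was highest by mean, at 29.2 ± 0.432 FPKM (SD, n = 3). *Il6st* at 26.6, *Il1b* at 25.6, *Lif* at 25.5 and *Osmr* at 21.9 FPKM followed, and the range of *Il1b*, from 21.8 to 31.9 FPKM, took in those of *Il6*, *Il6st* and *Lif*, so that *Il1b* was the highest of the 10 in WT replicate 3. *Il1r1* was at 7.74 FPKM, and the remaining 4 genes were low, with *Il1rn* at 1.62, *Il11* at 0.849, *Il33* at 0.440 and *Il1rl1* at 0.181 FPKM. The order by mean was the same in the KO-labelled libraries, where neighbours overlapped from *Il6* down to *Lif*, between *Il1rn* and *Il11*, and between *Il33* and *Il1rl1*. *Il6* lay at the 89.3rd percentile of all tested genes by mean FPKM and *Il1rl1* at the 3.58th. The top of this order depends on the length used. With the longest annotated transcript of each gene as its length, *Osmr* led in the WT-labelled libraries at 57.1 and *Il6st* led in the KO-labelled libraries at 52.2 on the same scale, where its range overlapped that of *Il6*.

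**Figure D1:**
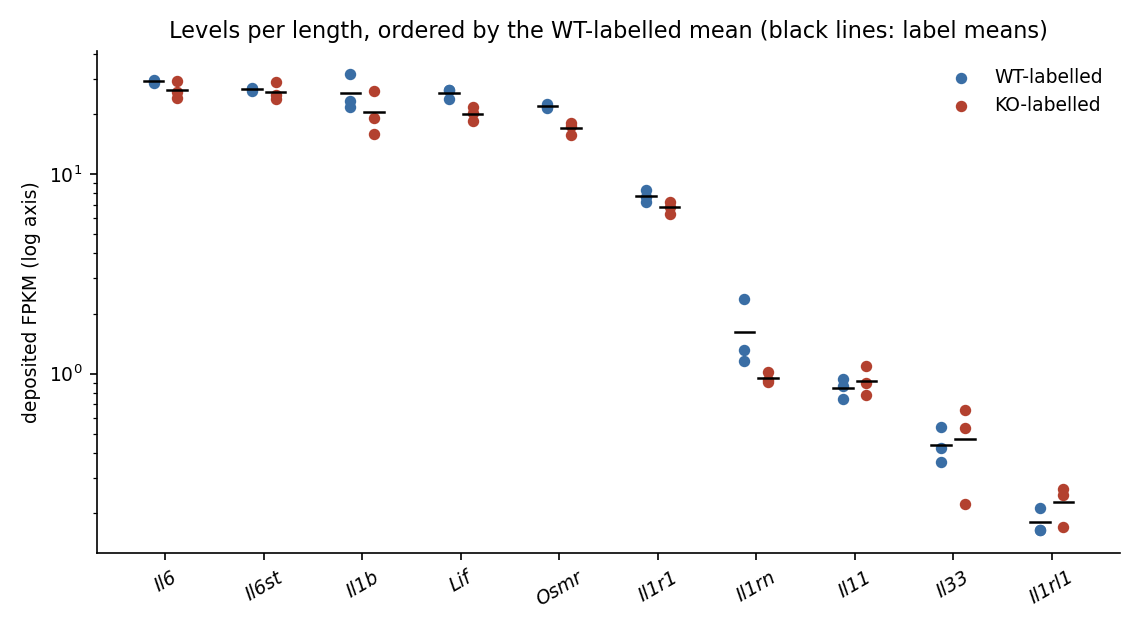
FPKM of each gene (log axis) in the 6 libraries, with points for libraries, coloured by label, black lines for label means, and the genes in the order of their WT-labelled mean. *Il6*, *Il6st*, *Il1b*, *Lif* and *Osmr* form a high group, with WT-labelled means between 21.9 and 29.2 FPKM, and *Il1rn*, *Il11*, *Il33* and *Il1rl1* lie below 2 FPKM by mean.

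Among the IL-6 family ligands, *Lif* was lower in the KO-labelled libraries, while *Il6* and *Il11* did not pass the test. The sequences just upstream of *Il6* and *Lif* are shown because these were the most abundant of the 3 ligands by FPKM and only *Lif* was called. They run 5′ to 3′ on the plus strand (RefSeq, GRCm38.p6), *Il6* from chr5:30012864-30013113 and *Lif* from chr11:4257318-4257556. Capitals mark matches to the letters TGANTCA (the AP-1 motif), TTGCNNAA (C/EBP) and GGANTTTCC (NF-kB), searched on both strands.
Il6: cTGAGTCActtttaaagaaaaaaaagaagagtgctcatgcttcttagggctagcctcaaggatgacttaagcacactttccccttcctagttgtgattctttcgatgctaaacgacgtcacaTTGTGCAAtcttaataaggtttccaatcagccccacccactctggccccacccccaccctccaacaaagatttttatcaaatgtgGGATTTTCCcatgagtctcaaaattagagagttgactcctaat
Lif: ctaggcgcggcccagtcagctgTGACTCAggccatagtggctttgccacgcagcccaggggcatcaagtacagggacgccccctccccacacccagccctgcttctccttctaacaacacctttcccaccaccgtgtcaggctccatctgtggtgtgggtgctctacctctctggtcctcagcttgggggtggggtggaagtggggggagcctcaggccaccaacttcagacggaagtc
The AP-1 letters began 249 bases before the RefSeq start of *Il6* (position 30013114) and 228 bases before that of *Lif* (position 4257568, a few bases inside the listed gene), and these letters stood in 6.75% of all 32851 promoter windows of 250 bases. *Il6* alone of these 2 genes also held the C/EBP letters, found in 9.56% of windows, and the NF-kB letters, found in 1.07%. The STAT letters TTCNNNGAA, found in 7.02% of windows, and the CRE letters TGACGTCA, found in 1.55%, stood in none of the windows of the 10 genes. No matches overlapped, and a match describes the sequence only.

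*Lif* (chr11:4257557-4272514) encodes leukemia inhibitory factor, which signals through gp130 and the LIF receptor. It was at 80.4, 95.3 and 88.6 CPM in KO replicates 1 to 3 and at 107, 119 and 118 CPM in WT replicates 1 to 3. The highest KO-labelled library lay below the lowest WT-labelled one. The KO-labelled mean of 88.1 ± 7.44 CPM was 76.9% of the WT-labelled mean of 115 ± 6.97 CPM (SD, n = 3 each). The log2 fold change was -0.38 (SE 0.08, 95% interval -0.55 to -0.20, edgeR adjusted p = 0.00684), and it was 0.04 when the libraries were scaled to the 12 fibroblast markers. Over all assignments of the libraries to labels, the exact permutation p (two-sided) was 0.1, below which 3 libraries against 3 cannot go.

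*Il6* (chr5:30013114-30019981) was at 117.7, 105 and 96.7 CPM in the KO-labelled libraries and at 118.4, 122 and 122 CPM in the WT-labelled libraries. The labels barely failed to overlap, since KO replicate 1 lay just under WT replicate 1, and in FPKM those libraries stood the other way round at 29.2 and 28.7. The mean was 107 ± 10.5 CPM against 121 ± 2.02 CPM (SD, n = 3 each), with a log2 fold change of -0.18 (SE 0.07, 95% interval -0.35 to -0.01, edgeR adjusted p = 0.0990). *Il6* passed the threshold without KO replicate 1 (log2 fold change -0.25, edgeR adjusted p = 0.0182) and with upper-quartile scaling. Without KO replicate 3 it was -0.11 (edgeR adjusted p = 0.295), and with fibroblast marker scaling it was 0.25 (edgeR adjusted p = 0.0531).

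*Il11* (chr7:4772373-4782857), a cytokine known for its action on fibroblasts, was represented by 33, 30 and 30 counts in the KO-labelled libraries and by 34, 28 and 31 counts in the WT-labelled libraries. The labels overlapped at 2.70, 2.25 and 1.93 against 2.38, 1.91 and 2.20 CPM. The log2 fold change of 0.08 (SE 0.22, edgeR adjusted p = 0.826) had a 95% interval from -0.44 to 0.59. Differences within those bounds were compatible with these data. The ratio of *Il11* to *Il6* in FPKM was 0.0373, 0.0347 and 0.0325 in the KO-labelled and 0.0326, 0.0255 and 0.0293 in the WT-labelled libraries, which overlapped.

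**Figure D2:**
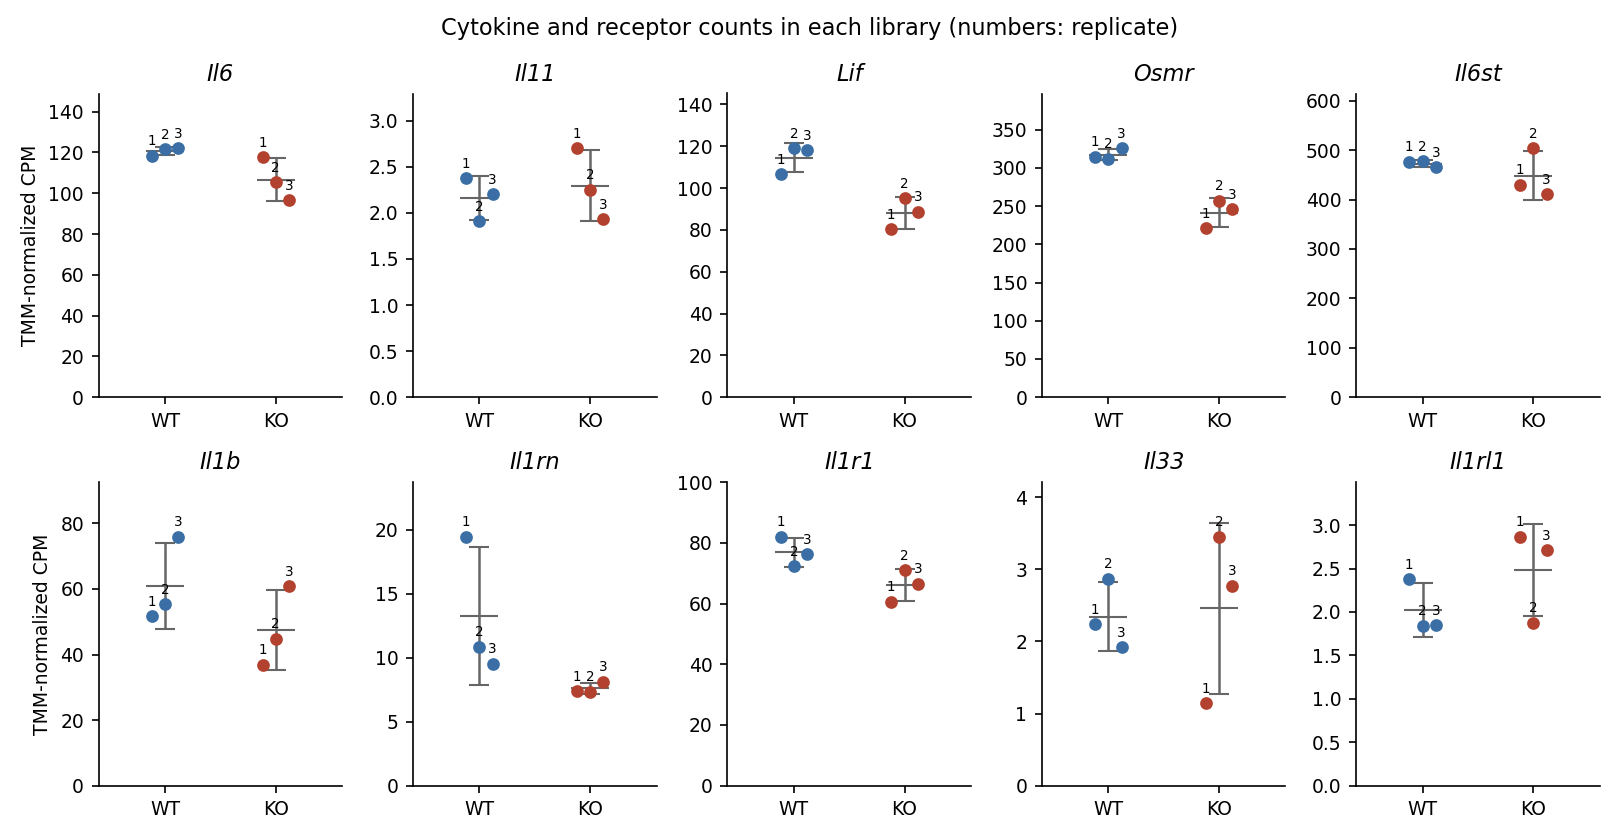
TMM-normalized CPM of each gene in the 6 libraries, one panel per gene with its own axis, with points for libraries and bars for the mean and SD of each label (n = 3). *Lif*, *Osmr*, *Il1rn*, *Il6* and *Il1r1* show all KO-labelled points below all WT-labelled points, and with fibroblast marker scaling the log2 fold changes of *Lif* (0.04), *Osmr* (0.03), *Il6* (0.25) and *Il1r1* (0.21) turn positive. The labels overlap for the other 5 genes.

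Of the IL-6 family receptor subunits, *Osmr* was lower and *Il6st* did not pass the test. *Osmr* (chr15:6813577-6874969) encodes the chain that pairs with gp130 to bind oncostatin M, a macrophage-derived cytokine to which stromal cells respond strongly. It was at 221, 257 and 246 CPM in the KO-labelled and at 315, 312 and 326 CPM in the WT-labelled libraries. The WT-labelled libraries lay close together, and every KO-labelled library was well below them. The mean of 241 ± 18.7 CPM was 76.0% of 318 ± 7.20 CPM (SD, n = 3 each), and the log2 fold change was -0.40 (SE 0.06, 95% interval -0.54 to -0.26, edgeR adjusted p = 0.00204), against 0.03 with fibroblast marker scaling. The exact permutation p was again 0.1.

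*Il6st* (chr13:112464070-112510086), the shared signalling chain, was at 430, 504 and 411 CPM in the KO-labelled libraries and at 476, 477 and 465 CPM in the WT-labelled ones. KO replicate 2 was the highest of all 6 libraries and KO replicate 3 the lowest, so the labels overlapped. The log2 fold change was -0.08 (SE 0.07, 95% interval -0.25 to 0.09, edgeR adjusted p = 0.463), and without KO replicate 2 it passed the threshold at -0.16 (edgeR adjusted p = 0.0345), while without KO replicate 3 it was -0.01 (edgeR adjusted p = 0.916). With fibroblast marker scaling it was called higher (0.35, edgeR adjusted p = 0.00167). In FPKM, the ratio of *Osmr* to *Il6st* was 0.628, 0.624 and 0.733 in the KO-labelled libraries and 0.808, 0.800 and 0.856 in the WT-labelled libraries. This ratio is free of library scaling, and its labels did not overlap (exact permutation p = 0.1). All other ratios taken overlapped between labels, among them those of *Lif* to *Il6*, *Il1rl1* to *Il1r1* and *Il33* to *Il1b*. The share over other gene pairs was not taken.

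Among the IL-1 genes, the antagonist *Il1rn* was lower in the KO-labelled libraries, a call lost in most alternatives, while *Il1b* and *Il1r1* did not pass the test. The sequences upstream of the antagonist and of the cytokine it opposes are given to set the called gene beside the uncalled one (RefSeq, GRCm38.p6), *Il1rn* from chr2:24336610-24336852 on the plus strand and *Il1b* from chr2:129371140-129371389 on the minus strand. Capitals mark the AP-1 letters in *Il1rn* and TATAAA (the TATA box) in *Il1b*.
Il1rn: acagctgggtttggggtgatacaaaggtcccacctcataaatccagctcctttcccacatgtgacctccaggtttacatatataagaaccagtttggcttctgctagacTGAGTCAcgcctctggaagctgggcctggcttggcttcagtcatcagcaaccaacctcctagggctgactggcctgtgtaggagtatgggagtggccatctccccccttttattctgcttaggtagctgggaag
Il1b: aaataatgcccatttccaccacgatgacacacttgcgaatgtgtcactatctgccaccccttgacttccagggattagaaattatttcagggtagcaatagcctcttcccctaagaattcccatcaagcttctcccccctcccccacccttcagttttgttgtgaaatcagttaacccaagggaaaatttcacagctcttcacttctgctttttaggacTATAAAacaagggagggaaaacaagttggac
The AP-1 letters began 141 bases before the first of the 3 RefSeq starts of *Il1rn* (position 24336860). The TATA letters began 31 bases before the start of *Il1b*, and 12.4% of all windows held them.

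*Il1b* (chr2:129364570-129371139), an inflammatory cytokine made chiefly by macrophages and neutrophils, was at 36.9, 44.8 and 60.8 CPM in the KO-labelled libraries and at 51.7, 55.3 and 75.9 CPM in the WT-labelled libraries. The labels overlapped, because KO replicate 3 exceeded WT replicates 1 and 2. The log2 fold change was -0.36 (SE 0.20, 95% interval -0.81 to 0.10, edgeR adjusted p = 0.210), and it ranged from -0.57 without KO replicate 3 (edgeR adjusted p = 0.0567) to -0.20 without KO replicate 1 and -0.17 without WT replicate 3 (edgeR adjusted p = 0.556). With fibroblast marker scaling it was 0.07 (edgeR adjusted p = 0.784). The exact permutation p was 0.3. The summed CPM of macrophage markers, led by *Lyz2*, ranged from 1274 to 1308 in the KO-labelled and from 1558 to 1671 in the WT-labelled libraries, with 7 of 12 tested called lower and 2 called higher, and that of the neutrophil markers ranged from 33.1 to 39.4 and from 31.9 to 35.4, with *Elane* at 0. Of 6 neutrophil markers tested, *S100a8* (log2 fold change 2.99, edgeR adjusted p = 0.00174) and *S100a9* (1.95, edgeR adjusted p = 0.0106) were called higher and *Mmp8* lower (-0.55, edgeR adjusted p = 0.0177). *Ly6g*, which did not pass the filter, had 7 to 15 counts in the KO-labelled libraries and 0 in the WT-labelled ones, and the fit without a filter called it higher (edgeR adjusted p = 0.00353). The part of these cells in the *Il1b* values was not tested.

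*Il1rn* (chr2:24336853-24351494) was at 7.37, 7.35 and 8.12 CPM in the KO-labelled libraries and at 19.5, 10.9 and 9.53 CPM in the WT-labelled libraries. The labels did not overlap, and WT replicate 1 stood far above the others. The mean was 7.61 ± 0.441 CPM, 57.5% of 13.3 ± 5.39 CPM (SD, n = 3 each), with a log2 fold change of -0.80 (SE 0.26, 95% interval -1.39 to -0.21, edgeR adjusted p = 0.0484). Over the alternatives the edgeR, DESeq2 or limma adjusted p ranged from 0.00727 to 0.235, and the log2 fold change with fibroblast marker scaling was -0.37 (edgeR adjusted p = 0.235). The call was lost in 5 of the 6 fits that left out 1 library, and without WT replicate 1 the log2 fold change was -0.42 (edgeR adjusted p = 0.0702). It was also lost with library totals, the filter at a mean CPM of at least 1, both limma fits and the replicate block. The ratio of *Il1rn* to *Il1b* in FPKM overlapped between labels, at 0.0579, 0.0477 and 0.0388 against 0.109, 0.0570 and 0.0364 (exact permutation test, p = 0.7).

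*Il1r1* (chr1:40225080-40317257), the signalling receptor for IL-1, was at 60.7, 71.0 and 66.6 CPM in the KO-labelled and at 82.0, 72.4 and 76.2 CPM in the WT-labelled libraries. KO replicate 2 came close to WT replicate 2, and the labels did not overlap in CPM, while in FPKM they stood at 7.27 and 7.26, so the labels overlapped. The mean was 66.1 ± 5.20 against 76.9 ± 4.85 CPM (SD, n = 3 each), with a log2 fold change of -0.22 (SE 0.08, 95% interval -0.39 to -0.04, edgeR adjusted p = 0.0637). It passed the threshold without KO replicate 2 (log2 fold change -0.26, edgeR adjusted p = 0.0430) and with upper-quartile scaling, and with fibroblast marker scaling it was called higher (0.21, edgeR adjusted p = 0.0328).

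The IL-33 axis was barely detected. *Il33* (chr19:29925114-29960718) encodes an alarmin released by damaged stromal and epithelial cells, and *Il1rl1* (chr1:40429570-40465415) encodes its receptor ST2, also found as a soluble decoy. *Il33* had 14, 46 and 43 counts in the KO-labelled libraries and 32, 42 and 27 in the WT-labelled libraries, or 1.15, 3.45 and 2.77 against 2.24, 2.87 and 1.92 CPM. KO replicate 1 was the lowest and KO replicate 2 the highest of the 6. The log2 fold change of 0.08 (SE 0.37) had a 95% interval from -0.76 to 0.92 (edgeR adjusted p = 0.888).

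*Il1rl1* had 35, 25 and 42 counts in the KO-labelled libraries and 34, 27 and 26 in the WT-labelled libraries, or 2.87, 1.88 and 2.71 against 2.38, 1.84 and 1.85 CPM. The labels overlapped, with KO replicate 2 among the WT-labelled values. The log2 fold change was 0.29 (SE 0.24, 95% interval -0.27 to 0.86, edgeR adjusted p = 0.401), and with fibroblast marker scaling it was called higher (0.72, edgeR adjusted p = 0.0395). ST2 is known from mast cells and innate lymphoid cells. The summed CPM of mast cell markers ranged from 50.9 to 53.3 in the KO-labelled and from 17.9 to 21.9 in the WT-labelled libraries, led by *Gata2*, with the defining genes *Cpa3*, *Fcer1a*, *Tpsb2*, *Mrgprb1* and *Mrgprb2* at 0 in every library. Of the 12 mast cell genes 4 were tested, and *Gata2* and the tryptase gene *Tpsab1* were called higher. *Tpsab1* had 78, 77 and 111 counts in the KO-labelled libraries and 0 in the WT-labelled ones, at least 30.8-fold higher against a floor of 3 counts per library. The part of mast cells in the *Il1rl1* values was not tested. That of T cell and innate lymphoid markers ranged from 14.5 to 16.3 and from 13.1 to 15.8, with *Cd3d*, *Cd3e*, *Cd3g*, *Cd8a* and *Il13* at 0.

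Counted together, 3 of the 10 genes were called lower in the KO-labelled libraries and 0 higher by edgeR, where 12.5% of all genes tested were called lower and 17.7% higher (30.2% in either direction). At an unadjusted p under 0.05 the counts were 5 lower and 0 higher, and the share over all genes was not taken at that threshold. DESeq2 also called 3 lower and 0 higher, against 1416 lower and 2265 higher among all genes tested. Library totals, the filter at a mean CPM of at least 1 and both limma fits called 2 of the 10 lower. Those fits called 1386 to 1738 of all genes lower. In CPM the labels did not overlap for 5 of the 10, all lower in the KO-labelled libraries, against 22.4% of all genes tested in that direction and 47.0% in either. In FPKM this held for 3 of the 10, against 18.9% of all genes tested. The median log2 fold change of the 10 was -0.20, against -0.02 over all genes tested and -0.42 over the 12 fibroblast markers. Scaling to the fibroblast markers raised the median of all genes by 0.43 on the log2 scale and left 0 of the 10 genes called lower and 3 called higher (*Il6st*, *Il1r1* and *Il1rl1*), where 62.9% of all genes tested were called higher and 0.263% lower. No gene of the 10 passed the threshold with a log2 fold change beyond 1 in either direction. Relative to the fibroblast markers, the log2 fold changes of *Lif* and *Osmr* were 0.04 and 0.03 (edgeR adjusted p = 0.613 and 0.664).

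**Figure D3:**
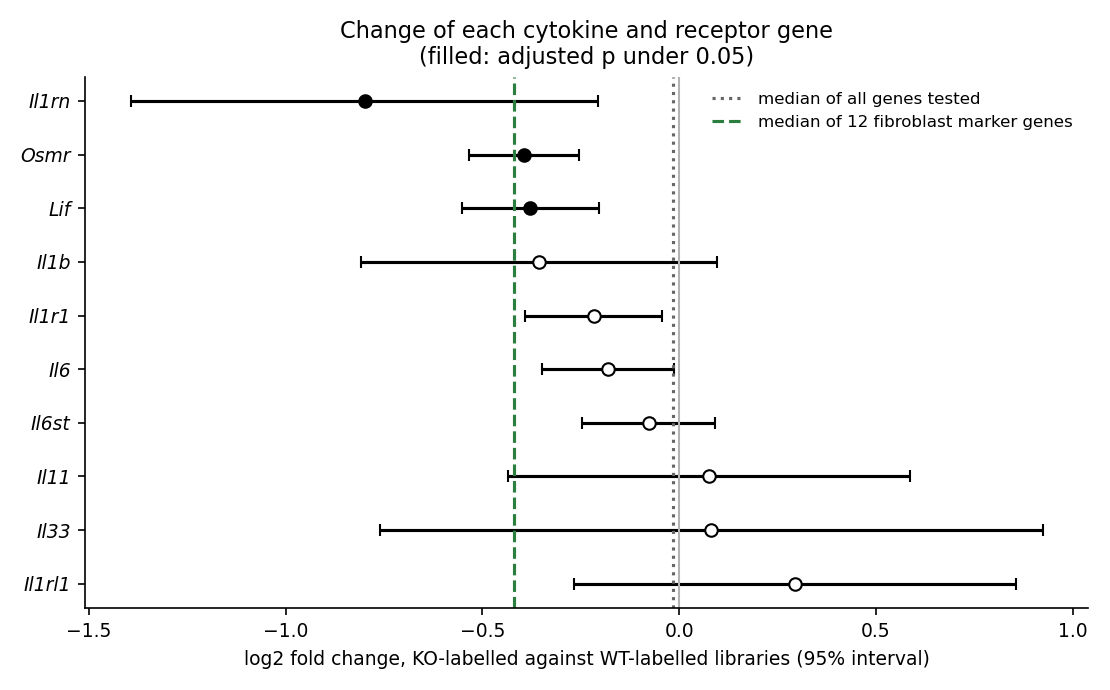
Log2 fold change of each gene, KO-labelled against WT-labelled libraries, with its 95% interval from edgeR (n = 3 each) and filled points for an adjusted p under 0.05; lines mark the medians of all genes tested (-0.02) and of 12 fibroblast markers (-0.42). *Il1rn*, *Osmr* and *Lif* are filled, and *Osmr* and *Lif* lie beside the fibroblast marker line, so that their sign turns (0.03 and 0.04) when the libraries are scaled to those markers.

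**Figure D4:**
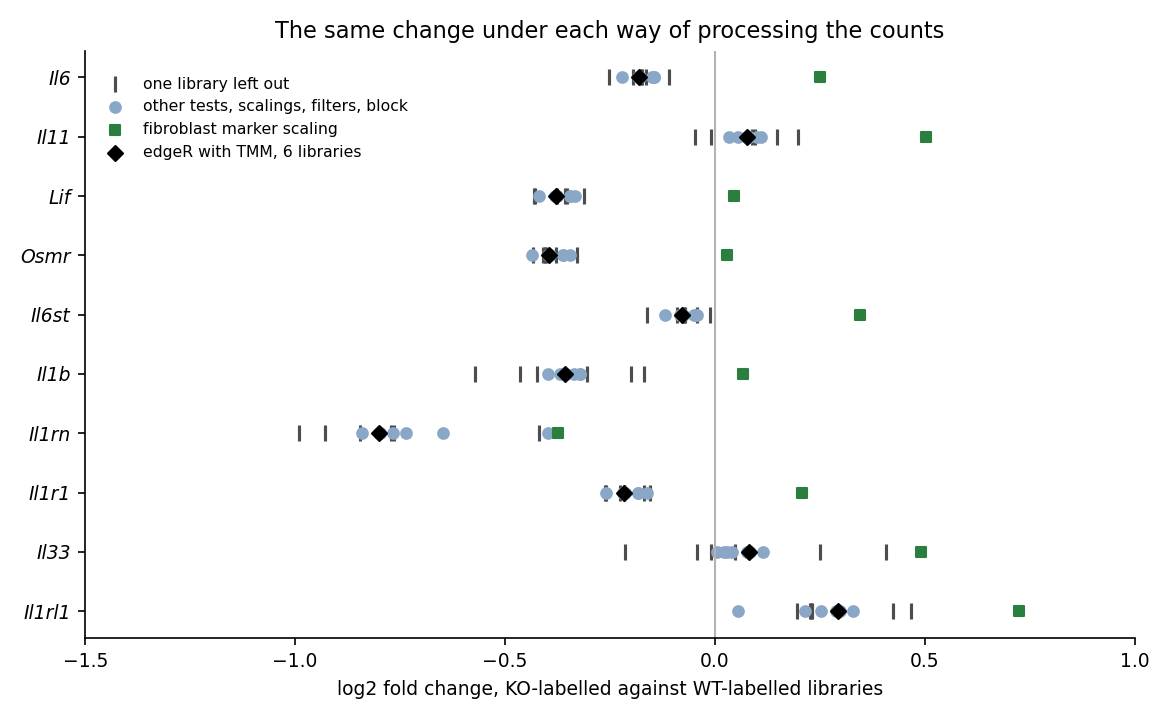
Log2 fold change of each gene under every setting tried, with a diamond for edgeR with TMM on 6 libraries, ticks for fits without 1 library, circles for other tests, scalings and filters, and squares for fibroblast marker scaling. The squares lie right of 0 for 9 of the 10 genes, and the ticks of *Il1rn* spread from -0.99 to -0.42.

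The other genes of these families were taken from lists drawn up by pathway. Of 20 further IL-1 family genes, 6 were tested, and 2 were called higher and 2 lower, with 3 lower without KO replicate 3 and 1 lower without WT replicate 2 or WT replicate 3. Over all genes tested 17.7% were called higher and 12.5% lower, and with fibroblast marker scaling 3 of these genes were called higher and 0 lower, against 62.9% and 0.263%. *Sigirr*, a receptor that damps IL-1 and Toll-like receptor signalling, was at 9.25, 5.40 and 7.93 CPM in the KO-labelled and at 0.770, 0.409 and 0.427 CPM in the WT-labelled libraries. Its log2 fold change of 3.79 (SE 0.32, edgeR adjusted p = 1.0e-04) was the largest of the 6. *Il18rap*, the accessory chain of the IL-18 receptor, was at 22.7, 13.4 and 15.9 against 3.50, 3.14 and 3.41 CPM, a log2 fold change of 2.36 (edgeR adjusted p = 1.5e-04). In both genes all KO-labelled libraries lay far above all WT-labelled ones and KO replicate 1 was highest, as it was for the endothelial marker sum. The part of endothelial cells in these values was not tested.

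The IL-36 receptor gene *Il1rl2* (log2 fold change -0.40, edgeR adjusted p = 0.00389) and the shared accessory chain gene *Il1rap* (-0.19, edgeR adjusted p = 0.0146) were called lower, and with fibroblast marker scaling both values turned to 0.03 and 0.23. *Il1a*, the other IL-1 agonist, was named after its values were seen. It was at 44.1, 52.4 and 65.2 CPM in the KO-labelled and at 60.6, 68.4 and 79.6 CPM in the WT-labelled libraries, and the labels overlapped (log2 fold change -0.36, edgeR adjusted p = 0.0990). *Il1f6*, which encodes the cytokine IL-36 alpha and was also named after its values were seen, had 7 to 25 counts in the KO-labelled libraries and 0 in the WT-labelled ones. It was at least 6.35-fold higher against a floor of 3 counts per library. It did not pass the filter, and the fit without a filter called it higher (edgeR adjusted p = 0.00141).

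Of 15 further IL-6 family genes, 10 were tested, with 2 called lower and 0 higher by edgeR, against 12.5% and 17.7% of all genes tested, and with fibroblast marker scaling 0 lower and 3 higher, against 0.263% and 62.9%. *Il11ra1*, the IL-11 receptor, was called lower (-0.24, edgeR adjusted p = 0.0275) but turned to 0.19 with fibroblast marker scaling, it lost the call in most alternatives, and its value is uncertain because it overlaps *Galt* on the same strand. *Osm* and *Lifr* were named after their values were seen, since they encode the ligand of *Osmr* and the receptor of *Lif*. *Osm* was at 1.23, 1.88 and 2.90 CPM against 3.29, 3.28 and 3.84 CPM with no overlap, and did not pass the test (log2 fold change -0.76, edgeR adjusted p = 0.0828). *Lifr* was at 4.26, 11.0 and 3.93 against 6.86, 13.6 and 14.9 CPM and overlapped (log2 fold change -0.89, edgeR adjusted p = 0.149). The median over the 10 tested genes was -0.31. Without any 1 of the WT-labelled libraries the count called lower fell to 1.

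The signalling genes downstream of the receptors are set beside 17.7% of all genes tested called higher, 12.5% called lower and 30.2% in either direction. Of 16 genes of the IL-1 receptor pathway, 1 was called higher, *Chuk* (an IkB kinase gene, log2 fold change 0.38, edgeR adjusted p = 0.00340), and 2 lower, *Ikbkb* (-0.29, edgeR adjusted p = 0.0174) and the adaptor gene *Myd88* (-0.25, edgeR adjusted p = 0.0147), which turned to 0.14 and 0.18 with fibroblast marker scaling. *Myd88* overlaps *Acaa1a* on the other strand. Of 13 genes of gp130 signalling, the kinase genes *Jak2* (0.49, edgeR adjusted p = 2.0e-04) and *Tyk2* (0.34, edgeR adjusted p = 0.00725) were called higher and the adaptor gene *Gab1* lower (-0.46, edgeR adjusted p = 0.00448, and -0.04 with fibroblast marker scaling). The median log2 fold changes of these lists were 0.03 and -0.04, and with fibroblast marker scaling 13 and 9 of their genes were called higher and 0 lower, where 62.9% of all genes tested were called higher and 0.263% lower. Without KO replicate 1, WT replicate 2 or WT replicate 3 the IL-1 receptor list had 1 gene called lower, and without WT replicate 1 the gp130 list had 2. Of 8 inflammasome and cytokine release genes, 4 were called higher and 0 lower, at a median of 0.14. *P2rx7*, the ATP-gated channel that triggers IL-1 release, had a log2 fold change of 1.27 (edgeR adjusted p = 0.00195), and the sensor gene *Nlrp3* one of 0.85 (edgeR adjusted p = 0.0295, and 0.0014 to 0.0929 over the alternatives). Without any 1 of the WT-labelled libraries the inflammasome count fell to 2.

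Target genes of both pathways were called in either direction. Of 12 STAT3 target and feedback genes, 1 was called higher and 4 lower, against 17.7% and 12.5% of all genes tested. The gene called higher was *Lbp*, which encodes a lipopolysaccharide-binding acute phase protein (log2 fold change 0.71, edgeR adjusted p = 5.9e-04). With fibroblast marker scaling 5 were called higher and 0 lower, against 62.9% and 0.263% of all genes tested. The largest falls were those of *Cebpd*, an acute phase transcription factor (-0.53, edgeR adjusted p = 8.5e-04), and *Timp1*, a metalloproteinase inhibitor (-0.44, edgeR adjusted p = 0.00116), and with fibroblast marker scaling they were -0.10 and -0.01. *Socs3*, the feedback inhibitor of gp130 signalling, was named after its values were seen and had a log2 fold change of 0.09 without passing the test.

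Of 25 NF-kB target and feedback genes, 7 were called higher and 8 lower, against 17.7% and 12.5% of all genes tested. Their median was -0.08. With fibroblast marker scaling 18 were called higher and 0 lower, against 62.9% and 0.263% of all genes tested. The number called higher was 3 without WT replicate 1 and 4 without WT replicate 2 or WT replicate 3, and the number called lower was 5 without WT replicate 3. The colony-stimulating factor gene *Csf3* was at 104, 50.6 and 52.4 CPM in the KO-labelled and at 7.98, 11.3 and 10.3 CPM in the WT-labelled libraries (log2 fold change 2.80, SE 0.30, edgeR adjusted p = 3.5e-04). All KO-labelled libraries lay far above, with KO replicate 1 the highest. *Csf2* had a log2 fold change of 2.00 (edgeR adjusted p = 0.0196, and up to 0.0644 without WT replicate 1). *Icam1*, a leukocyte adhesion molecule (-0.43, edgeR adjusted p = 0.00112), and *Tnf* (-0.41, edgeR adjusted p = 0.0249, and 0.0834 without WT replicate 3) had the largest falls called, which with fibroblast marker scaling were 0.00 for *Icam1* and 0.01 for *Tnf*.

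**Figure D5:**
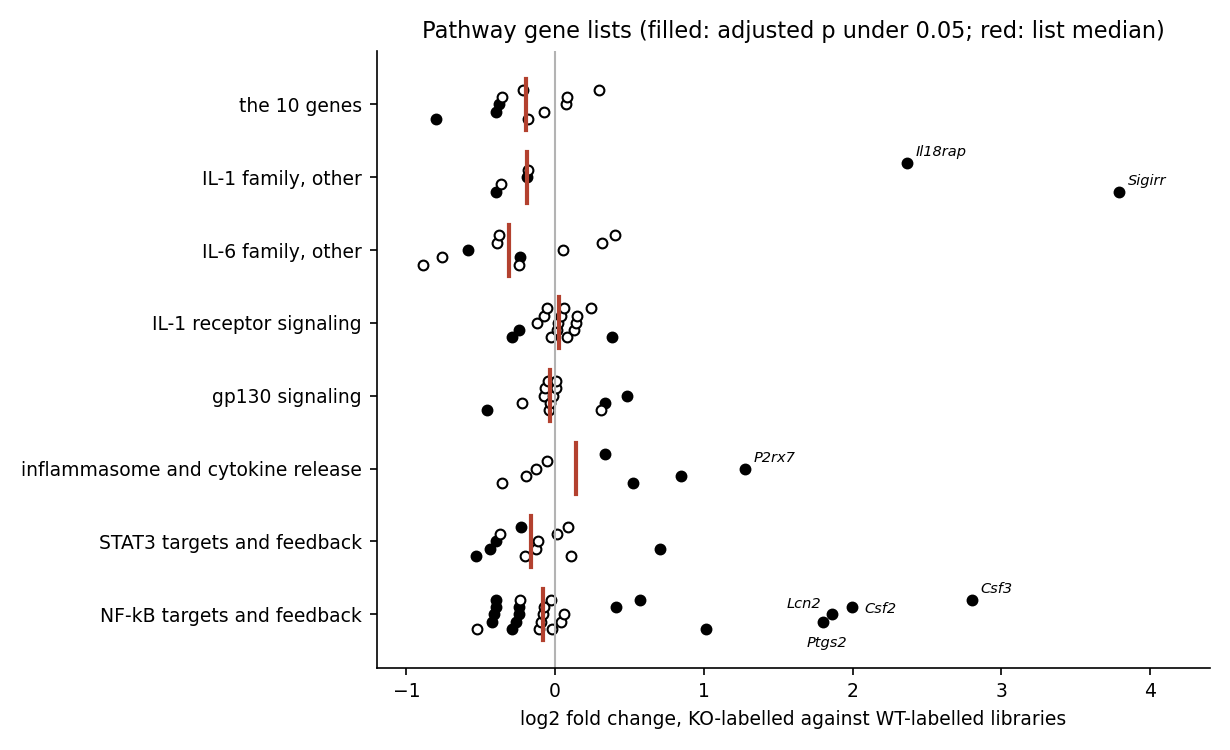
Log2 fold change, KO-labelled against WT-labelled libraries, of the 10 genes and of each tested gene of 7 pathway lists, with filled points for an edgeR adjusted p under 0.05 and a red line at each list's median. The medians lie between -0.31 and 0.14, and the points beyond 1, *Sigirr*, *Il18rap*, *P2rx7* and 5 NF-kB targets, are all on the side of the KO-labelled libraries. Over all genes tested, 844 were called higher and 38 lower with a fold change above 2.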

How the data were processed

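RNA of cardiac fibroblasts from 3 KO-labelled and 3 WT-labelled samples was sequenced from stranded, poly(A)-selected libraries as paired-end reads. According to the submitters' processing notes, HISAT2 and edgeR were used with the mm10 (GRCm38.p4) genome. The counting tool, the annotation and the strand setting were not given in the sources used here. The deposited table gave raw counts per gene for each library, and FPKM values, which the authors computed from fragments, gene length and library size. The length behind FPKM exceeded the longest GENCODE M21 transcript by 1.10-fold (*Lif*) to 3.17-fold (*Il1rn*) for the genes described. The authors' fold changes and p-values were not used.

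Counts were fitted with edgeR 4.0.16 (R 4.3.3; filterByExpr, TMM, quasi-likelihood test, two-sided, Benjamini-Hochberg adjustment over all 14084 genes tested), and genes with an adjusted p under 0.05 were called. The biological coefficient of variation was 10.9%. The code was tested on simulated data with known fold changes. Between libraries of 1 label, 22.4% to 31.8% of genes had an unadjusted chi-square p under 0.05, more than sampling noise alone would give. No library was therefore another one sequenced again. The check cannot tell separate libraries of 1 RNA or 1 mouse from those of different mice. FPKM gave levels between genes and ratios, with exact permutation tests in scipy 1.17.1. Alternatives were library totals, upper-quartile and fibroblast marker scaling, DESeq2 1.42.0, limma 3.58.1 on log2(FPKM + 1) and log2(FPKM + 0.1), other filters, a fold change above 2, a replicate block and leaving out each library. The level order by transcript length was added after seeing the data. The genes described and all lists were chosen with earlier results of these data known. From each pathway list the called genes with the 2 largest rises and falls were named. A gene that this rule names is not reported here. *Itgam* was left out because it is listed under 2 identifiers. Promoter sequences (RefSeq, GRCm38.p6) were cut where they met an annotated exon.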

Additional observations from a re-analysis of the deposited data

How the results depend on the processing

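Fibroblast marker scaling changed most values. It turned the log2 fold changes of *Il6* to 0.25, *Lif* 0.044, *Il1b* 0.066, *Il1r1* 0.21, *Osmr* 0.029, *Il6st* 0.35 and *Kdm5b* 0.21, and, of the pathway genes, those of *Il1rl2* to 0.032, *Il1rap* 0.23, *Il11ra1* 0.19, *Ikbkb* 0.14, *Myd88* 0.18 and *Tnf* 0.0097. With it, 8856 genes were called higher and 37 lower, against 2488 and 1760, and of the 10 genes 3 were called higher and 0 lower. With a fold change above 2 required in addition, 844 genes were called higher, 38 lower and 0 of the 10. Upper-quartile scaling called 5 of the 10 lower, adding *Il6* (-0.22) and *Il1r1* (-0.26), where 2263 of all genes tested were called lower against 1760. Leaving out each library gave 2013 to 2508 genes higher, 1131 (without KO replicate 3) to 1614 lower, and 2 to 4 of the 10 lower. *Il11* then ranged from -0.047 (without KO replicate 1) and -0.0083 (without WT replicate 2) to 0.20, and *Il33* was -0.21 without KO replicate 2, -0.0094 without KO replicate 3, -0.04 without WT replicate 3 and up to 0.41 without KO replicate 1. *Kdm5b* was called without WT replicate 1 (-0.29, edgeR adjusted p = 0.0188) and with upper-quartile scaling (-0.26), and was called higher with fibroblast marker scaling (edgeR adjusted p = 0.0422). *Il11ra1* was not called lower in 11 of 15 alternatives. *Lif* and *Osmr* were called under every alternative other than fibroblast marker scaling and the fold limit. The causes were not tested.

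The replicate numbers did not pair the libraries by the criterion used, since the same-numbered correlations of deviations were 0.0168, 0.0172 and 0.0307, although each library correlated best with its own number. With the replicate number as a block, 2316 genes were called higher and 1591 lower, and again 3 of the 10 lower, with *Il1b* (-0.37, edgeR adjusted p = 0.0114) in place of *Il1rn* (-0.74, edgeR adjusted p = 0.0651). *Kdm5b* was also called lower (-0.21, edgeR adjusted p = 0.0271), and *Csf2* was not called (1.89, edgeR adjusted p = 0.0526). *Il11*, *Il33* and *Il1rl1* rest on 14 to 46 counts per library, which limits what can be detected.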
